A study of Mus musculus with 8 samples.

Results

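Tri-PyMT mouse breast tumour cells that were high in nucleolar transcripts were compared with cells that were low in them. A nucleolar score was taken for every cell with at least 1000 counts, as the share of its counts that fell on 10 genes: Ncl, Npm1, Fbl, Nop56, Nop58, Nhp2, Nop10, Gar1, Dkc1 and Mrto4. Within each of 4 libraries the 25% of cells with the highest score were set against the 25% with the lowest, and all other genes were compared between them. The cells were thus chosen by the measured counts of the 10 genes. This gave 1403 high and 1403 low cells, 2806 of the 5620 cells with enough counts and of 7400 cells in all.

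The cells came from mice that carry the MMTV-PyMT oncogene, Fsp1-cre and the Rosa26mT/mG reporter, and all groups share these 3 alleles. In this reporter, cells hold a red membrane protein until Cre removes it and switches on a green one, and Cre was driven here by the promoter of Fsp1, the gene now called S100a4. The cells were cultured, sorted by fluorescence into an RFP+ and a GFP+ population and run on Drop-seq, which captures polyadenylated RNA of single cells on barcoded beads. Each population had 2 libraries, and the labels name neither an age nor separate cultures. The edgeR p-values set the high over low difference within libraries against a spread pooled over all genes, not each gene's own. They measure no spread between animals or cultures, and small values do not stand for many replicates. The reporter rows of the table went against the labels: CUSTOM_GFP lay at 663 CPM in the low cells of the libraries labelled RFP+ against 119.9 CPM in those labelled GFP+, and CUSTOM_RFP at 149 against 3200.1 CPM. The populations are therefore named as labelled throughout, RFP+ first and GFP+ second wherever a pair of values is given. CPM values are scaled to the counts outside the 10 score genes. Wherever low and high values are paired, the low cells come first, then the high ones, library 1 before library 2.

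The nucleolus is the part of the nucleus where ribosomal RNA is transcribed by RNA polymerase I, cut, chemically modified and joined with ribosomal proteins. Fbl, Nop56 and Nop58 belong to the box C/D small nucleolar ribonucleoprotein, which methylates ribosomal RNA. Dkc1, Nhp2, Nop10 and Gar1 form the box H/ACA particle, which turns uridines into pseudouridine. Ncl (nucleolin) and Npm1 (nucleophosmin) are abundant nucleolar proteins that act in ribosomal RNA processing and in export of ribosomal subunits, and Mrto4 takes part in assembly of the large subunit. Ribosome production is costly, is raised in many tumours, and is driven in part by the transcription factor Myc.

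The score was spread as a single hump in every library, with no gap between low and high cells. Pooled over a library's cells it came to 1.14%, 1.14%, 1.01% and 1.02% of counts in RFP+ libraries 1 and 2 and GFP+ libraries 1 and 2. It was 1.62%, 1.61%, 1.46% and 1.48% in their high cells and 0.709%, 0.693%, 0.621% and 0.623% in their low cells. The high and low groups met the middle cells without a step: in RFP+ library 1 the last cell inside the high group had 1.36204% and the first outside 1.36187%, and the last inside the low group had 0.882613% and the first outside 0.882825%. Counts of the score genes varied between cells 1.86 to 2.04 times as much as binomial counting would give (chi-square per degree of freedom). A low cell held 8.5 to 10 score counts at the median and a high cell 20 to 26. The cells' median total counts were 1354 (low) and 1396 (high), 1355 and 1541, 1400 and 1407, and 1352 and 1329 in the 4 libraries, so the groups differed most in depth in RFP+ library 2.

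**Figure D1:**
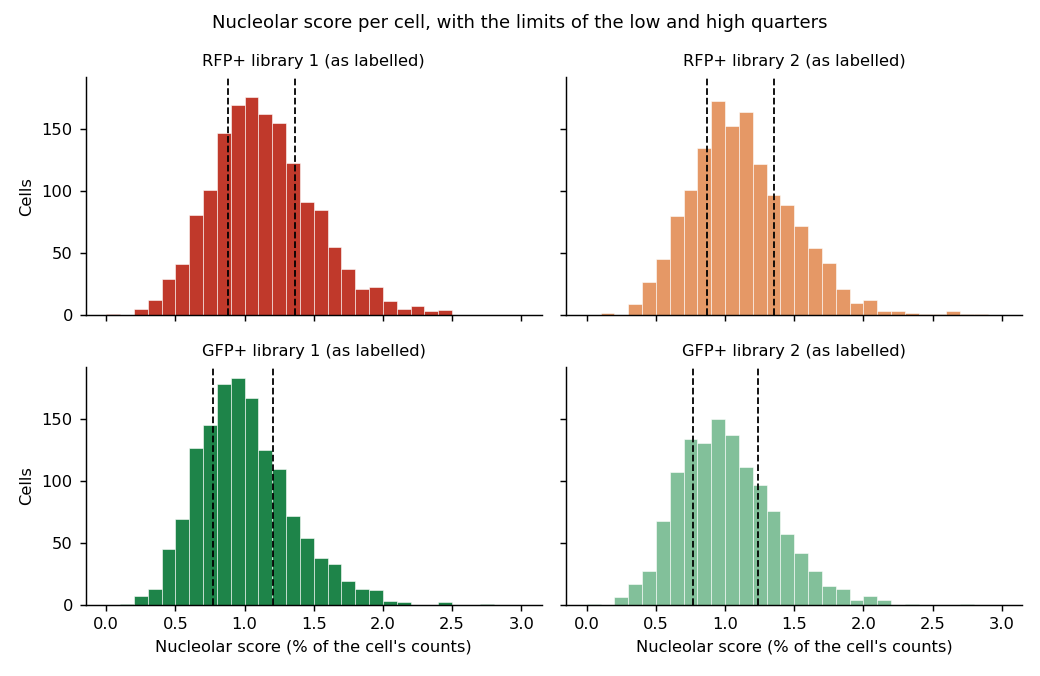
Nucleolar score of every cell with at least 1000 counts, 1 panel per library, as cells (vertical axis) in bins of score in percent of the cell's counts (horizontal axis). Dashed lines are the limits of the low and high groups, which cut through a single hump in each library, at 0.883% and 1.36% in RFP+ library 1.

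Nucleolin and nucleophosmin carried most of the score, 75.8% to 77.1% of its counts. Ncl (chr1:86344719-86359400, GRCm38) lay at 2656 in low and 7058 in high cells of RFP+ library 1, in CPM of all counts, 2666 and 7175 in RFP+ library 2, 2458 and 6699 in GFP+ library 1 and 2492 and 6743 in GFP+ library 2. Its ratio of high to low was 2.66 to 2.73, and that of Npm1 (chr11:33152287-33163206) 2.07 to 2.18. The box C/D proteins stood at 2.23 to 2.44 (Nop58), 1.87 to 2.39 (Nop56) and 1.56 to 2.1 (Fbl), and the H/ACA proteins at 1.73 to 2.52 (Nhp2), 2.02 to 2.4 (Dkc1), 1.41 to 1.64 (Gar1) and 1.4 to 1.58 (Nop10). Mrto4 stood at 1.85 to 2.66. These values chose the cells and are given without a test.

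Cells were then scored on one random part of their counts and measured on the other, which removes the part of the ratio that comes from choosing cells by chance counts, provided that counts are separate molecules. The summed level of the 10 genes was 1.34 to 1.41 times as high in the high cells by the held-out counts, against 2.28 to 2.37 in the counts that chose the cells. Cells chosen on part of their counts are also sorted less sharply, so chance counts alone do not make up the gap. Held-out ratios were 1.52 to 1.61 for Ncl, 1.23 to 1.3 for Npm1, 1.26 to 1.5 for Nop58 and 1.23 to 1.56 for Nhp2, above 1 in all 4 libraries. So were those of Dkc1 (1.2 to 1.54) and Mrto4 (1.05 to 3.03). Fbl (0.94 to 1.41) and Nop56 (0.98 to 1.29) were above 1 in 3 libraries of 4. Nop10 (0.88 to 1.28) and Gar1 (0.8 to 1.13) were above 1 in 1 library of 4.

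Splitting the cells by Ncl and Npm1 alone left the other 8 score genes as measures that the split had not used. Nop58, the scaffold of the C/D particle, rose from 721 to 1044, from 768 to 1106, from 693 to 899 and from 784 to 965 CPM in RFP+ libraries 1 and 2 and GFP+ libraries 1 and 2, a log2 high over low of 0.56 ± 0.07 and 0.38 ± 0.07 (SE) with edgeR adjusted p = 3.07e-14 and 5.81e-05. Nhp2 rose by 0.31 ± 0.09 and 0.50 ± 0.10 (SE) (edgeR adjusted p = 0.0134 and 0.000205) and Dkc1, the pseudouridine synthase, by 0.43 ± 0.13 and 0.55 ± 0.15 (SE) (edgeR adjusted p = 0.0355 and 0.0184). Nop56 passed in the libraries labelled RFP+, with 0.34 ± 0.10 and 0.35 ± 0.11 (SE) and edgeR adjusted p = 0.032 and 0.0592. Fbl (0.30 ± 0.14 and 0.20 ± 0.16 (SE)), Mrto4 (0.21 ± 0.19 and 0.38 ± 0.24 (SE)), Gar1 (0.05 ± 0.17 and 0.07 ± 0.20 (SE)) and Nop10 (-0.14 ± 0.11 and -0.12 ± 0.12 (SE)) did not pass in either population. In the opposite split, by the other 8 genes, Ncl rose by 0.29 ± 0.05 and 0.24 ± 0.05 (SE) with edgeR adjusted p = 8.67e-07 and 0.000629, and Npm1 showed 0.15 ± 0.05 and 0.14 ± 0.05 (SE) with edgeR adjusted p = 0.307 and 0.484.

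Among the 8053 other genes tested, cells high in nucleolar transcripts held more RNA of some ribosome assembly factors, translation factors, chaperones and keratins, and less of some mesenchymal genes, such as S100a4 and vimentin, of some lysosomal genes and of mitochondrially encoded RNAs. In the libraries labelled RFP+, 200 genes (2.48% of those tested) were higher and 116 (1.44%) lower in the high cells, 316 in all (3.92%). In those labelled GFP+, 152 (1.89%) were higher and 97 (1.2%) lower, 249 in all (3.09%). In both populations 77 genes (0.956%) were higher and 45 (0.559%) lower. All 122 genes called in both had the same direction in both, and they made up 38.6% of the RFP+ calls and 49% of the GFP+ calls. Of all tested genes 61.5% had the same sign in both populations. Changes were modest: 45 of the 200 and 48 of the 152 higher genes reached 1.5-fold, as did 68 of the 116 and 56 of the 97 lower ones, while the median log2 over all genes tested was -0.01 in each population.

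Calls were made with edgeR's quasi-likelihood F test on counts summed per library and group of cells, with each library as a block and Benjamini-Hochberg adjustment at 0.05. With 2 libraries a population the number of calls depended on each of them: it was 69 higher and 45 lower in RFP+ without RFP+ library 1, 61 and 39 without RFP+ library 2, 33 and 37 in GFP+ without GFP+ library 1, and 33 and 31 without GFP+ library 2. DESeq2's Wald test called 15 higher and 11 lower in RFP+ and 13 and 7 in GFP+. Every gene called by edgeR kept its sign there, which the same sums and design all but fix in advance. A score without Ncl and Npm1 called 2 higher and 4 lower in RFP+ and 1 and 5 in GFP+. Those 2 genes held 75.8% to 77.1% of the score's counts, so leaving them out also ranked cells on far fewer counts. Whether the 2 genes or the fewer counts lowered the calls was not tested. Of the edgeR calls, 188 of 200 higher and 108 of the 114 lower genes that could be tested kept their sign in RFP+ under the score without Ncl and Npm1, and 137 of 149 and 90 of 93 in GFP+. A filter at 50 CPM shifted all log2 values by about -0.045 and -0.049 and changed the split to 174 higher and 180 lower in RFP+ and 122 and 143 in GFP+.

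**Figure D2:**
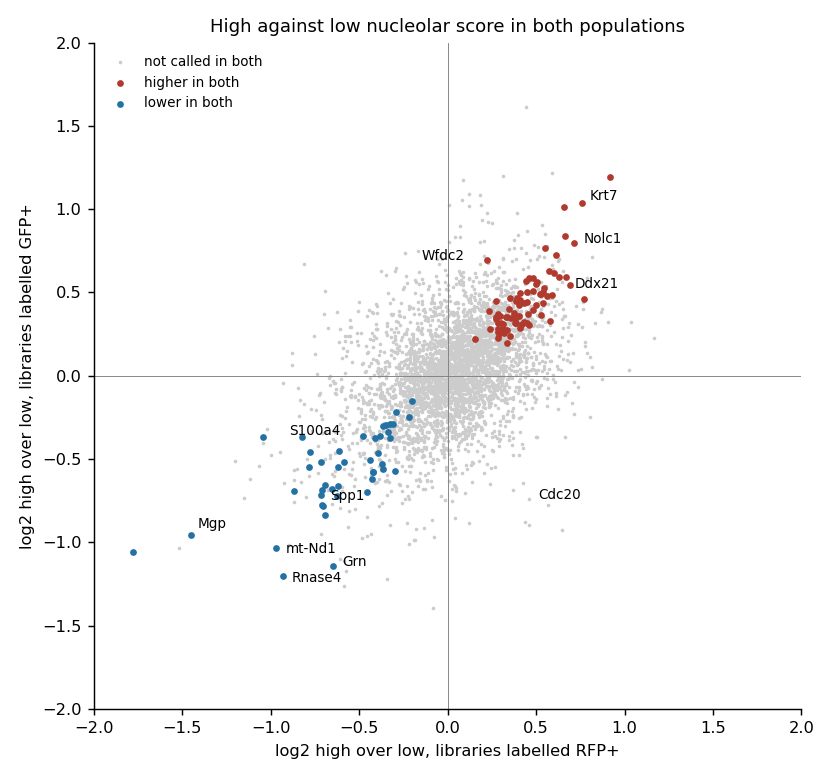
log2 high over low of each gene in the libraries labelled RFP+ (horizontal axis) and GFP+ (vertical axis), for the 3783 genes at 50 CPM or more in the higher group of either population. Genes called in both populations lie in the upper right (77, red) or lower left (45, blue) corner; 1 gene lies outside the axes, and Cdc20 lies in the lower right.

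A share of the genes of ribosome assembly rose and none of them fell. Over 4 lists together (RNA polymerase I, small subunit processome, large subunit assembly, and decay and modification of ribosomal RNA) 24 of 168 tested members rose in RFP+ and 22 in GFP+, with median log2 values of 0.25 and 0.31. Counts on these and later lists stand against 2.48% and 1.89% of all genes tested that rose, and 1.44% and 1.2% that fell. Those shares take in genes down to 10 CPM, while all 122 genes called in both lay at 50 CPM or more. Nolc1 (chr19:46075863-46085530), a nucleolar phosphoprotein that binds small nucleolar particles and polymerase I, rose from 685 to 1135 and 612 to 967 CPM in RFP+ and from 585 to 960.4 and 578 to 1021 CPM in GFP+. That is a log2 of 0.72 ± 0.07 and 0.80 ± 0.08 (SE), with edgeR adjusted p = 1.47e-20 and 2.33e-20, and every high group of cells lay above every low one. Its relative Tcof1 stood at 0.45 ± 0.15 and 0.18 ± 0.14 (SE) with edgeR adjusted p = 0.0504 and 0.646, and Nolc1 was the single member of 21 on the polymerase I list that passed.

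The small subunit processome, which folds and cuts the precursor of the small ribosomal RNA, had 8 of 60 members higher in RFP+ and 12 in GFP+, none lower, with medians of 0.30 and 0.39. Ddx21 (chr10:62580251-62602281), a nucleolar RNA helicase that ties polymerase I transcription to processing, rose from 527 to 791 and 500.4 to 823 CPM in RFP+ and from 601 to 856 and 551 to 848 CPM in GFP+. Its log2 was 0.67 ± 0.08 and 0.59 ± 0.08 (SE) (edgeR adjusted p = 1.28e-14 and 2.11e-10), without overlap between the high and low sums. Tsr1, a factor of late small subunit maturation, showed 0.63 ± 0.15 and 0.59 ± 0.16 (SE) (edgeR adjusted p = 0.00281 and 0.0117), and Nol11, a part of the processome that joins it to transcription, 0.59 ± 0.13 and 0.48 ± 0.13 (SE) (edgeR adjusted p = 0.000617 and 0.0103). Heatr1 and Noc2l passed in GFP+, with 0.09 and 1.18 and with 0.18 and 1.08, and the differences between populations did not pass for either.

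Assembly factors of the large subunit gave 13 of 56 higher in RFP+ and 9 in GFP+, none lower, with medians of 0.32 and 0.32. The helicase Ddx27 rose from 118 to 177 and 137 to 192 CPM in RFP+ and from 109 to 177 and 103 to 179 CPM in GFP+, or 0.55 ± 0.15 and 0.77 ± 0.17 (SE) on the log2 scale (edgeR adjusted p = 0.0145 and 0.00125). Tma16, which joins late particles of the large subunit, showed 0.66 ± 0.21 and 0.84 ± 0.24 (SE) and Rrp15 0.44 ± 0.16 and 0.74 ± 0.17 (SE), the latter past the threshold in GFP+ (edgeR adjusted p = 0.0918 and 0.00212). Mybbp1a (chr11:72441355-72451768), a nucleolar protein that binds Myb and acts in ribosomal RNA processing, was on none of the lists and rose from 207 to 366 and 243 to 348 CPM in RFP+ and from 258 to 348 and 249 to 381 CPM in GFP+. Its log2 was 0.69 ± 0.11 and 0.55 ± 0.12 (SE) with edgeR adjusted p = 2.77e-07 and 0.000486. The exosome and modification list had 2 of 32 (6.25%) higher in RFP+ and 0 in GFP+. Among these 2 was Exosc9, a core subunit of the exosome, at 0.65 and 0.34. Of 12 host transcripts of small nucleolar RNAs none passed, and Gas5 stood at -0.19 and -0.06.

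Beyond the nucleolus, some RNAs of the translation machinery rose. Initiation factors had 10 of 42 members higher in RFP+ and 8 in GFP+, none lower, with medians of 0.20 and 0.17. That is 23.8% and 19%, against 2.48% and 1.89% of all genes tested. Eif2s2, the beta subunit of the factor that brings the initiator tRNA, rose from 564 to 714 and 648 to 937 CPM in RFP+ and from 599 to 698 and 507 to 643 CPM in GFP+. Its log2 was 0.46 ± 0.08 and 0.31 ± 0.09 (SE) (edgeR adjusted p = 2.79e-07 and 0.0176), and Eif3b, a scaffold subunit of the large initiation factor, showed 0.39 ± 0.12 and 0.47 ± 0.13 (SE) (edgeR adjusted p = 0.0342 and 0.0117). Gspt1, which ends translation together with Etf1, showed 0.58 ± 0.08 and 0.33 ± 0.08 (SE) (edgeR adjusted p = 3.37e-09 and 0.00698). On the list of elongation factors, 3 of 11 rose in each population and 1 fell in RFP+, with medians of 0.13 and 0.04. The summed level of that list in high over low cells was 1.01, 1.04, 1.02 and 1.02 in the 4 libraries. Aminoacyl-tRNA synthetases, which charge tRNAs, had 5 and 3 of 22 higher, none lower, and Rars, for arginine, rose by 0.41 ± 0.10 and 0.49 ± 0.10 (SE) (edgeR adjusted p = 0.00425 and 0.000158).

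Protein folding factors moved the same way. Of 19 chaperones, 10 rose in RFP+ (52.6%) and 6 in GFP+ (31.6%), with medians of 0.23 and 0.21. Of 13 genes of the TRiC chaperonin and prefoldin, 4 rose in each population (30.8%), with medians of 0.25 and 0.25. None was lower on either list. Hsp90aa1 (chr12:110690605-110702728), the inducible cytosolic Hsp90, rose from 1345 to 1832 and 1324 to 1896 CPM in RFP+ and from 1482 to 2022 and 1478 to 1859 CPM in GFP+. The log2 was 0.50 ± 0.06 and 0.42 ± 0.06 (SE) (edgeR adjusted p = 1.56e-15 and 3.73e-10) and high and low sums did not overlap within a population. Hspa9, the Hsp70 of mitochondria, showed 0.45 ± 0.07 and 0.51 ± 0.07 (SE) (edgeR adjusted p = 3.75e-09 and 4.19e-11), Hspa4, a nucleotide exchange factor for Hsp70, 0.48 ± 0.07 and 0.40 ± 0.07 (SE) (edgeR adjusted p = 1.04e-09 and 7.11e-07), and the chaperonin subunit Cct6a 0.38 ± 0.07 and 0.32 ± 0.07 (SE) (edgeR adjusted p = 8.02e-06 and 0.00067). Hsp90aa1 and its paralog are similar in sequence, and how shared reads were counted is not given in the sources used here.

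Purine and pyrimidine synthesis had 5 of 28 genes higher in RFP+ (17.9%) and 3 in GFP+ (10.7%), none lower. Ppat, which commits the purine pathway, and Atic, which ends it, passed in both, at 0.54 ± 0.15 and 0.44 ± 0.14 (SE) and at 0.48 ± 0.13 and 0.51 ± 0.12 (SE). Nuclear transport had 4 and 2 of 25 higher, with Rangap1, which sets off GTP hydrolysis by Ran, at 0.40 ± 0.12 and 0.42 ± 0.12 (SE) (edgeR adjusted p = 0.0204 and 0.0201). Splicing factors and heterogeneous nuclear ribonucleoproteins had 6 and 4 of 34 higher, with Hnrnpd, which binds AU-rich RNA, at 0.41 ± 0.11 and 0.46 ± 0.12 (SE) (edgeR adjusted p = 0.00736 and 0.00556). Among genes outside all lists, Ybx3, a cold-shock domain RNA-binding protein, rose from 486 to 755 and 545 to 754 CPM in RFP+ and from 443 to 748 and 521 to 698 CPM in GFP+, or 0.57 ± 0.08 and 0.63 ± 0.09 (SE) (edgeR adjusted p = 2.48e-10 and 3.73e-10). Strbp, which binds double-stranded RNA, stood at 0.66 ± 0.18 and 1.01 ± 0.21 (SE) and the deubiquitinase Usp7 at 0.77 ± 0.15 and 0.46 ± 0.14 (SE), both called in both populations.

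Genes for the proteins of the ribosome itself were called in both directions in RFP+ and higher in GFP+. Of 80 cytosolic ribosomal protein genes, 4 rose and 4 fell in RFP+, 5 rose and none fell in GFP+, and the medians were -0.02 and 0.07. The log2 was above 0 for 33 of them in RFP+ and for 65 in GFP+. The 5 that rose in GFP+ made up 6.25%, against 1.89% of all genes tested, which go down to 10 CPM. The 3783 genes at 50 CPM or more held all 122 genes called in both, and their medians were 0.04 and 0.04. A share among genes of like level was not taken. The summed level of the ribosomal protein list in high over low cells was 1.01, 0.96, 1.03 and 1.03 in the 4 libraries, against 1.23, 1.25, 1.29 and 1.27 for the small subunit processome and 1.26, 1.24, 1.2 and 1.29 for large subunit assembly. The difference between these lists was not tested. Rpl8 rose by 0.15 ± 0.05 and 0.22 ± 0.05 (SE) in both (edgeR adjusted p = 0.0214 and 0.000549), Rpl5, which carries 5S ribosomal RNA, showed 0.20 ± 0.06 and 0.19 ± 0.07 (SE) (edgeR adjusted p = 0.0155 and 0.0994), and Rps27 fell in RFP+, at -0.30 ± 0.06 and -0.17 ± 0.07 (SE) (edgeR adjusted p = 0.000208 and 0.191). Mitochondrial ribosomal proteins had 1 and 2 of 73 higher, none lower, and medians of 0.04 and 0.10. Those counts (1.37% and 2.74%) lie near the 2.48% and 1.89% of all genes tested.

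**Figure D3:**
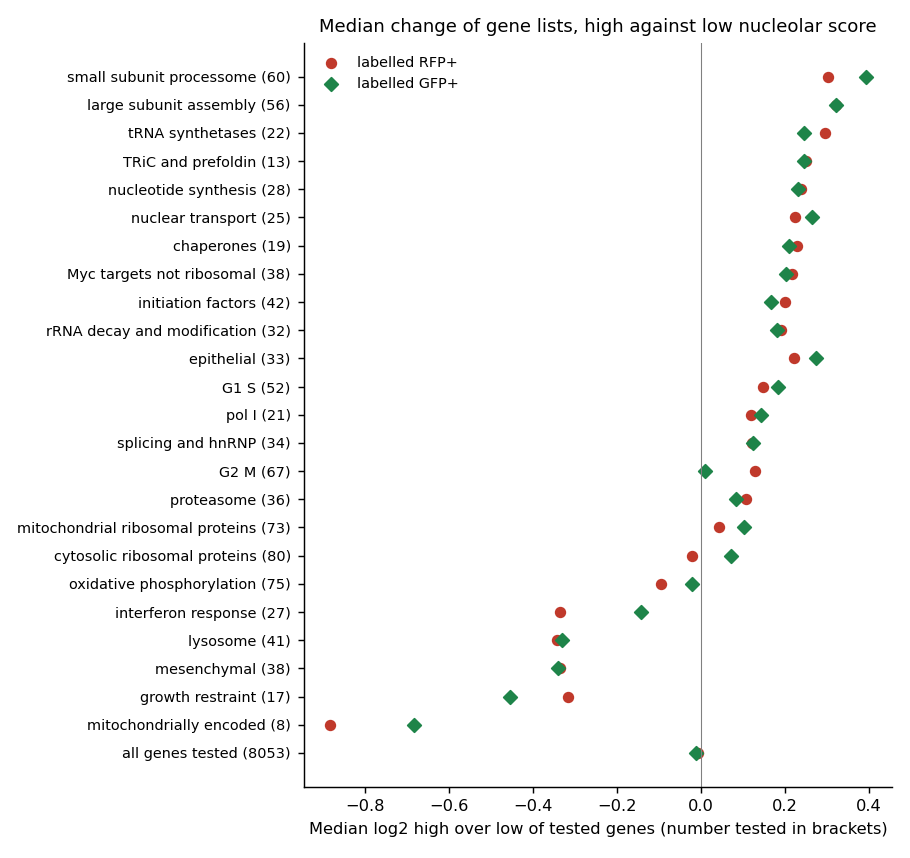
Median log2 high over low of the tested genes of 24 lists and of all genes tested, for libraries labelled RFP+ (red circles) and GFP+ (green diamonds), with the number of genes tested in brackets. The small subunit processome (0.30 and 0.39) lies at the right and mitochondrially encoded RNAs (-0.88 and -0.68) at the left, with all genes near 0.

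Promoters of the higher genes were read for the palindrome CACGTG, the E-box form that Myc with Max and other factors of their class bind. RefSeq promoters (GRCm38.p6, from 250 bases before to 50 after the start, 1 per gene) were matched by symbol or synonym for 62 of the 77 genes higher in both populations. The motif stood in 19 of these 62 (30.6%), in 11.2% of 6385 matched tested genes that were not higher in both, and in 7.24% of all 27025 promoters. The 77 genes all lay at 50 CPM or more, while tested genes go down to 10 CPM. No set of like level was read, so the part of expression level in these shares was not tested. Among tested ribosome assembly genes 27 of 139 matched (19.4%) held it, and none of the 8 matched score genes did. Of the 45 genes lower in both, 31 matched (68.9%, under the minimum of 80% set for this comparison) and 1 of the 31 held the motif. That value is void as a comparison. A match is a description of letters, not of binding.

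The stretches below are shown because they belong to genes of 4 different groups that rose in both populations: a processome factor, a purine enzyme, a mitochondrial chaperonin and a histone chaperone. They were picked after their values were seen, from 11 genes with the motif before the start. Capitals mark CACGTG, and the strand is the gene's own, 5′ to 3′.
Nol11: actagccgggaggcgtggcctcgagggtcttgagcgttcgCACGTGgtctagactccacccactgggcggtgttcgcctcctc
Atic: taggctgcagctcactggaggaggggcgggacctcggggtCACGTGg
Hspd1: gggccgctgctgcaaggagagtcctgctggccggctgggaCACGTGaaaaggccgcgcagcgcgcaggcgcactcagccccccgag
Set: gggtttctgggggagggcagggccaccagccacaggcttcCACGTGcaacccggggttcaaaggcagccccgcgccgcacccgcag
The Nol11 stretch lies at chr11:107189382-107189464, minus strand, with the motif's first base 43 bases before the annotated start. In Atic (chr1:71557109-71557155, plus strand) it begins 7 bases before the start, in Hspd1 (chr1:55088278-55088363, minus strand) 80 and in Set (chr2:30061822-30061907, plus strand) 134 bases before it. Atic, whose product carries out the last steps of purine synthesis, rose from 172 to 263 and 202 to 251 CPM in RFP+ and from 255 to 313 and 221 to 355 CPM in GFP+, edgeR adjusted p = 0.00843 and 0.00336. Set, a histone chaperone that also restrains protein phosphatase 2A, rose by 0.43 ± 0.07 and 0.44 ± 0.07 (SE) and Hspd1, the chaperonin of mitochondria, by 0.28 ± 0.06 and 0.31 ± 0.06 (SE), with edgeR adjusted p = 1.81e-08 and 2.32e-07 and 0.000395 and 2.67e-05.

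Myc itself did not pass. It lay from 83.7 to 68.2 and 55.0 to 72.1 CPM in RFP+ and from 55.6 to 42.0 and 60.8 to 36.5 CPM in GFP+, a log2 of 0.03 ± 0.23 and -0.52 ± 0.29 (SE) with edgeR adjusted p = 0.975 and 0.432. Mxd4, which pairs with Max in place of Myc, fell in RFP+ and did not pass in GFP+, at -1.43 ± 0.42 and -1.09 ± 0.42 (SE) (edgeR adjusted p = 0.0216 and 0.159). Of 7 tested genes on the list of the Myc network, 1 fell in RFP+, none passed in GFP+ and none rose. The log2 was above 0 for 3 of the 7 in each population, with medians of -0.06 and -0.08. Of 38 other known Myc targets, 8 rose in RFP+ (21.1%) and 7 in GFP+ (18.4%), none fell, and the medians were 0.22 and 0.20. Of all genes tested 2.48% and 1.89% rose.

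Some epithelial keratins rose and some mesenchymal genes fell in the cells high in nucleolar transcripts. Krt7 (chr15:101411043-101430313), a keratin of simple epithelia, had the largest mean change of the named genes higher in both populations, and rose from 240.0 to 343 and 213 to 420.0 CPM in RFP+ and from 86.1 to 197 and 81.1 to 136 CPM in GFP+. Its log2 was 0.76 ± 0.11 and 1.04 ± 0.18 (SE) with edgeR adjusted p = 6.43e-09 and 5.75e-06, and the high and low sums did not overlap within either population. Krt18 (chr15:102028180-102032027) showed 0.27 ± 0.07 and 0.45 ± 0.10 (SE) (edgeR adjusted p = 0.00239 and 0.00183), and its partner Krt8 0.30 ± 0.09 and 0.15 ± 0.15 (SE), past the threshold in RFP+ (edgeR adjusted p = 0.0373 and 0.756). Wfdc2 (chr2:164562413-164568510), a secreted epithelial protein, rose from 981 to 1123 and 1008 to 1165 CPM in RFP+ and from 463 to 631 and 361 to 688 CPM in GFP+, or 0.22 ± 0.06 and 0.69 ± 0.09 (SE) (edgeR adjusted p = 0.0204 and 5.64e-11). The epithelial surface protein Epcam did not pass (0.12 ± 0.10 and 0.35 ± 0.13 (SE)), and Cd24a, a surface glycoprotein on the same list, fell, at -0.32 ± 0.08 and -0.37 ± 0.10 (SE) (edgeR adjusted p = 0.00305 and 0.00652). Over the list 4 of 33 (12.1%) rose and 1 (3.03%) fell in each population, with medians of 0.22 and 0.27.

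Of 38 mesenchymal genes, 10 fell in RFP+ and 12 in GFP+, 9 of them in both, and none rose (medians -0.34 and -0.34). The shares were 26.3% and 31.6%, against 1.44% and 1.2% of all genes tested. S100a4 (chr3:90603771-90606045), the calcium-binding protein whose promoter drives Cre in these mice, fell from 789.6 to 464 and 854 to 481 CPM in RFP+ and from 2179 to 1505 and 2372 to 1751 CPM in GFP+. Its log2 was -0.78 ± 0.08 and -0.46 ± 0.06 (SE) with edgeR adjusted p = 8.03e-19 and 5.08e-13, so within each population the cells high in nucleolar transcripts had less of it, while both groups of cells labelled GFP+ stayed above those labelled RFP+. Vimentin (Vim), the mesenchymal intermediate filament, fell from 2178 to 1660.0 and 2073 to 1496 CPM in RFP+ and from 3554 to 2688 and 3763 to 2831 CPM in GFP+, or -0.41 ± 0.05 and -0.38 ± 0.05 (SE) (edgeR adjusted p = 4.06e-11 and 1.62e-11). Mgp (chr6:136872435-136875823), the matrix Gla protein, fell from 136 to 65.3 and 202 to 55.2 CPM in RFP+ and from 334 to 156 and 296 to 162 CPM in GFP+, or -1.45 ± 0.19 and -0.96 ± 0.14 (SE) (edgeR adjusted p = 3.04e-12 and 2.95e-09). Sparc, which binds collagen, showed -0.83 ± 0.10 and -0.37 ± 0.08 (SE) and Thbs1, thrombospondin, -0.71 ± 0.16 and -0.78 ± 0.17 (SE), both called in both populations. Col6a1, a chain of collagen VI, fell from 22.1 to 2.97 and 17.7 to 1.53 CPM in RFP+ and from 53.8 to 20.2 and 54.7 to 18.3 CPM in GFP+, at few counts in the high cells of RFP+ (edgeR adjusted p = 0.00127 and 0.00727).

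Markers of other cell types were low in high and low cells alike. Of 5 fibroblast markers in the table, Col1a1 was at 0 in both, and their summed level was 7.1 to 26.4 CPM in low and 2.97 to 12.2 CPM in high cells, lower in the high cells of all 4 libraries. Of 10 immune markers, Ptprc, Lyz2, Csf1r and Coro1a were at 0, and the sum was 41.3 to 83.7 CPM in low and 28.6 to 62.3 CPM in high cells, most of it Cd14. Endothelial markers summed to at most 8.41 CPM and the 2 erythroid markers in the table were at 0. No doublet was removed, and the part of these cells in the mesenchymal genes was not tested. Neither reporter moved beyond -0.21 and -0.19 (CUSTOM_GFP) and -0.20 and -0.16 (CUSTOM_RFP), of which the last value passed (edgeR adjusted p = 0.643 and 0.0413).

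**Figure D4:**
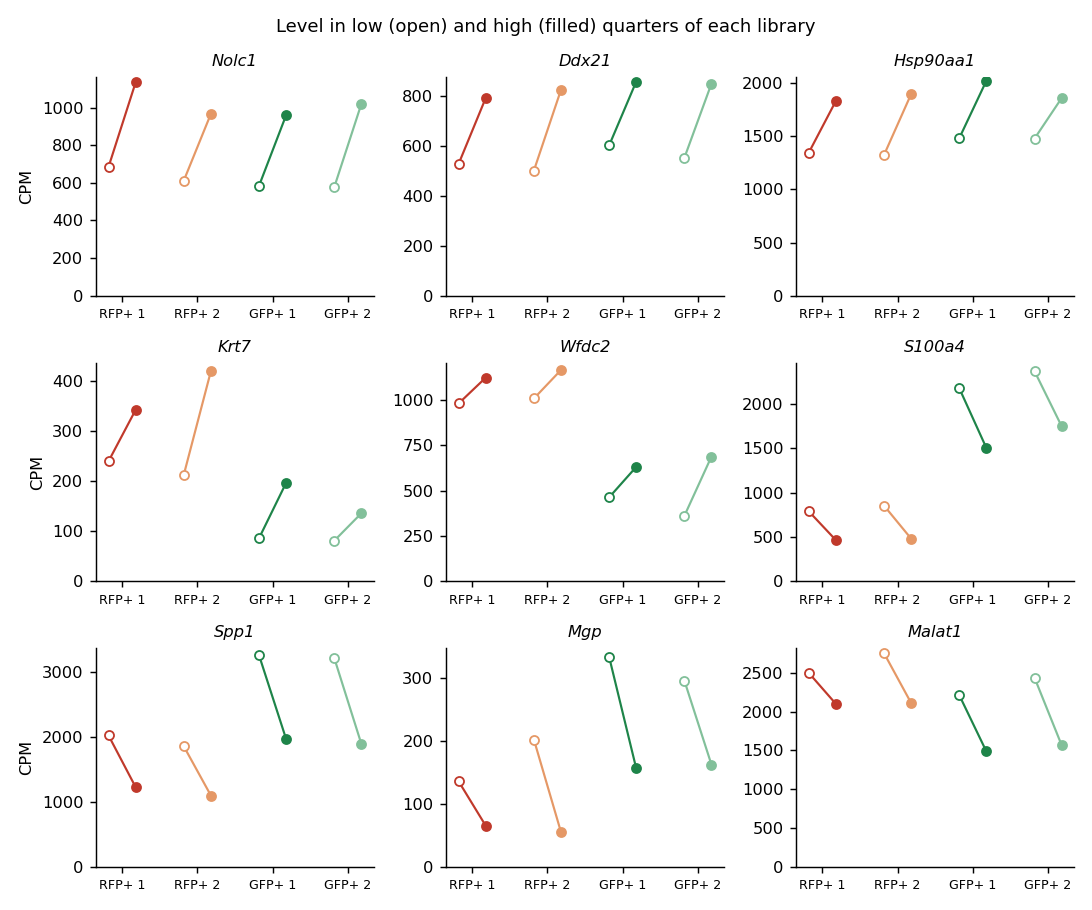
Level in CPM of 9 genes in low cells (open circles) and high cells (filled circles) of each library, joined by a line, from an axis at 0. Nolc1, Ddx21, Hsp90aa1, Krt7 and Wfdc2 rise and S100a4, Spp1, Mgp and Malat1 fall in all 4 libraries.

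Some lysosomal and interferon-response genes and a few genes of secreted proteins were lower in the high cells. Spp1 (chr5:104435118-104441050), osteopontin, fell from 2025 to 1228 and 1858 to 1099 CPM in RFP+ and from 3261 to 1969 and 3217 to 1893 CPM in GFP+. Its log2 was -0.72 ± 0.06 and -0.71 ± 0.05 (SE) with edgeR adjusted p = 2.42e-31 and 1.24e-38, a near-equal drop in both populations. It was the single gene called of 13 tested on the chemokine and cytokine list, whose medians were 0.19 and 0.04. No list of secreted proteins as such was tested. Of 41 lysosomal genes, 5 (12.2%) fell in each population and none rose, with medians of -0.34 and -0.33. Of all genes tested 1.44% and 1.2% fell. Grn (chr11:102430315-102437048), progranulin, fell from 131 to 74.2 and 151 to 104 CPM in RFP+ and from 197 to 80.7 and 199 to 95.4 CPM in GFP+, or -0.65 ± 0.18 and -1.15 ± 0.18 (SE) (edgeR adjusted p = 0.0126 and 7.26e-08), and Npc2, a cholesterol carrier of the lysosome, stood at -0.62 ± 0.11 and -0.45 ± 0.11 (SE) (edgeR adjusted p = 2.57e-06 and 0.00173). The secreted ribonuclease Rnase4 fell, at -0.93 ± 0.20 and -1.21 ± 0.18 (SE), Mfge8, a secreted protein that tags dying cells, at -0.71 ± 0.19 and -0.69 ± 0.20 (SE), and the protease Prss23 at -0.78 ± 0.16 and -0.55 ± 0.14 (SE). Of 27 interferon-response genes, 4 fell in RFP+ and 5 in GFP+, with Ifi27 at -0.71 ± 0.17 and -0.78 ± 0.20 (SE) and Ifitm2, which blocks virus entry, at -0.63 ± 0.14 and -0.72 ± 0.18 (SE), while 1 rose in GFP+. Fos, an immediate early transcription factor, fell, at -0.69 ± 0.16 and -0.66 ± 0.14 (SE) (edgeR adjusted p = 0.000698 and 0.000534), the single member of 21 on its list to pass.

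RNAs encoded by mitochondrial DNA made up less of the counts in the high cells of all 4 libraries. Their share of counts was 0.753% in low and 0.435% in high cells of RFP+ library 1, 0.681% and 0.392% in RFP+ library 2, 0.467% and 0.29% in GFP+ library 1 and 0.39% and 0.28% in GFP+ library 2. Of 8 tested, 7 fell in RFP+ and 4 in GFP+, with medians of -0.88 and -0.68. mt-Nd1, which codes for a part of complex I, fell from 523 to 231 and 438 to 254 CPM in RFP+ and from 237 to 111 and 237 to 116 CPM in GFP+, or -0.97 ± 0.10 and -1.03 ± 0.16 (SE) (edgeR adjusted p = 1.99e-17 and 2.73e-08). Of 75 nuclear genes of oxidative phosphorylation, 5 (6.67%) fell in RFP+ and 1 (1.33%) in GFP+, against 1.44% and 1.2% of all genes tested. None rose, and the medians were -0.10 and -0.02, far nearer to all genes. The high and low cells were also taken within 3 equal groups of cells by that share, an alternative chosen after seeing the data. The median of mitochondrially encoded RNAs was then -0.10 and -0.18, a move toward 0 that grouping by their own share sets in advance. Among the other lists, medians were 0.27 and 0.31 for the small subunit processome, 0.22 and 0.22 for chaperones, 0.20 and 0.35 for epithelial and -0.27 and -0.29 for mesenchymal genes. Medians of glycolysis and hypoxia genes (-0.02 and -0.03) and of mitotic genes in GFP+ (-0.0008) turned negative. Those of nuclear-retained RNAs in GFP+ (0.04) and of small nucleolar RNA hosts in RFP+ (0.02) turned positive. In that alternative 127 genes were higher and 70 lower in RFP+ and 98 and 55 in GFP+.

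Calls among proliferation genes exceeded the share over all genes tested in RFP+ and lay near it in GFP+. Mki67, a marker of cycling cells, lay from 365 to 359 and 341 to 356 CPM in RFP+ and from 592 to 547 and 501 to 509 CPM in GFP+, a log2 of 0.04 ± 0.10 and -0.02 ± 0.09 (SE) (edgeR adjusted p = 0.921 and 0.947), and Top2a showed 0.14 ± 0.08 and 0.14 ± 0.08 (SE) (edgeR adjusted p = 0.405 and 0.426). Of 52 genes of the G1/S transition and DNA replication, 4 (7.69%) rose in RFP+ and 1 (1.92%) in GFP+, none fell, with medians of 0.15 and 0.18. Of 67 mitotic genes, 7 (10.4%) rose in RFP+, and 1 (1.49%) rose and 1 fell in GFP+, with medians of 0.13 and 0.01. Of all genes tested 2.48% and 1.89% rose. With high and low cells taken within 3 equal groups of cells by their share of cycle genes, 167 genes were higher and 95 lower in RFP+ and 156 and 88 in GFP+. The cell cycle inhibitor Cdkn1a did not pass (-0.13 ± 0.23 and 0.40 ± 0.27 (SE)), and of 17 genes that restrain growth 1 fell in RFP+ and 2 in GFP+.

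The middle cells, which entered no call, showed the same order. In group 3 against group 2 of the 4 equal groups by score, 68 of the 77 genes higher in both populations were higher in RFP+ and 63 in GFP+, and 39 and 33 of the 45 lower genes were lower, against 48.9% and 49.3% of all tested genes that were higher. Krt7 ran through groups 1 to 4 at 240, 235, 336 and 343 CPM in RFP+ library 1 and at 86.1, 103, 124 and 197 CPM in GFP+ library 1. The summed level of the chaperone list was 1.18, 1.27, 1.17 and 1.16 times as high in high as in low cells of the 4 libraries, and that of lysosomal genes 0.81, 0.86, 0.84 and 0.82 times.

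**Figure D5:**
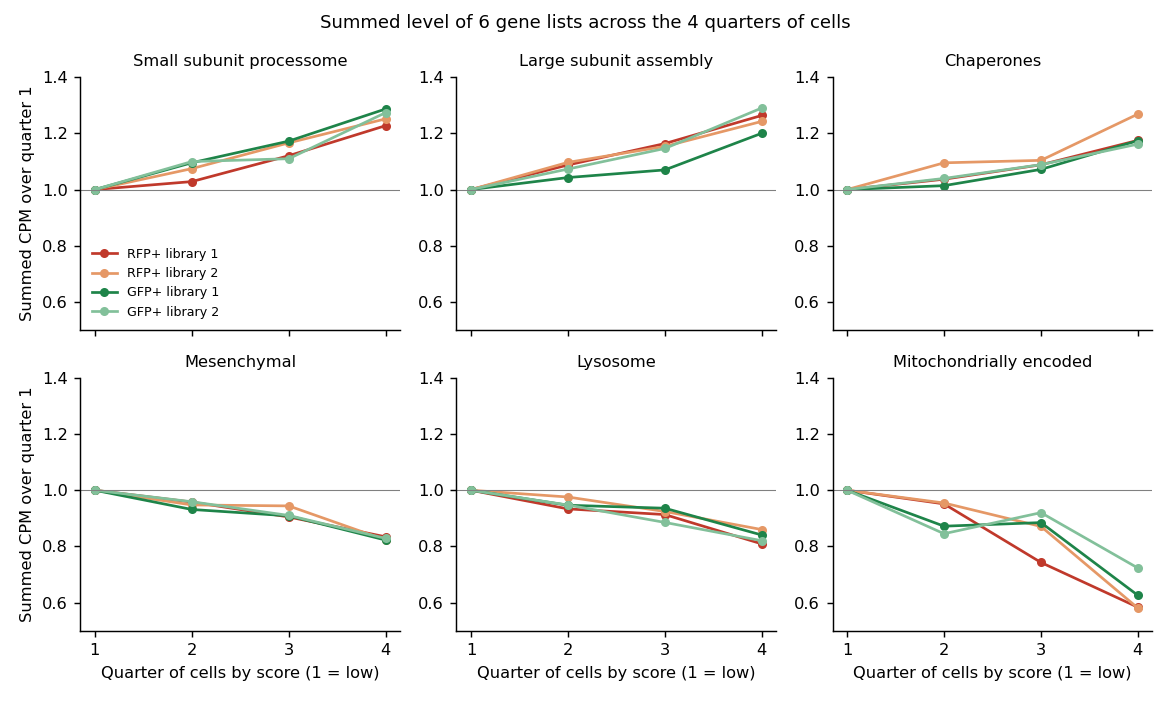
Summed level of 6 gene lists in the 4 equal groups of cells by score, relative to the low cells of the same library (group 1), 1 line per library. Both ribosome assembly lists climb to between 1.2 and 1.29 and the chaperones to between 1.16 and 1.27 in group 4, while mesenchymal and lysosomal genes end between 0.81 and 0.86 and mitochondrially encoded RNAs between 0.58 and 0.72.

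With the score taken without Ncl and Npm1, 33 of 39 list medians in RFP+ and 36 of 39 in GFP+ kept their sign, 28 and 29 of them nearer to 0. The medians were 0.13 and 0.14 for the small subunit processome, 0.18 and 0.09 for large subunit assembly, 0.10 and 0.03 for chaperones, 0.02 and 0.25 for epithelial, -0.08 and -0.20 for mesenchymal, -0.09 and -0.02 for lysosomal and -0.14 and -0.24 for mitochondrially encoded genes. Those of the polymerase I list (-0.002), the splicing list (-0.01) and the list of p53 targets (-0.01) turned negative in GFP+. In RFP+ the proteasome list (-0.004) and the chemokine and cytokine list (-0.08) did. Also in RFP+, cholesterol synthesis (0.15), hosts of small nucleolar RNAs (0.09), amino acid stress (0.02) and the mTORC1 and AMPK list (0.01) turned positive. The cause was not tested.

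The effect of a high score differed between the populations for 2 of 8053 genes (0.0248%) by the interaction term of the same edgeR fit, and for 412 at an unadjusted p under 0.05. Cdc20, the activator of the anaphase-promoting complex, went from 131 to 181 and 137 to 182 CPM in RFP+ and from 109 to 69.0 and 128 to 69.0 CPM in GFP+. mt-Rnr1, the small ribosomal RNA of mitochondria, went from 486 to 249 and 569.6 to 254 CPM in RFP+ and from 470.0 to 346 and 385 to 302 CPM in GFP+. DESeq2's Wald test called neither, and of the genes named above Nolc1, Ddx21, Ybx3, Hspa9, Hsp90aa1, Set, mt-Nd1, S100a4, Spp1 and Vim passed it in both populations.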

How the data were processed

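Counts per gene and cell, as deposited by the authors, are whole numbers up to 342 over 16647 gene rows. GRCm38 is the genome build that the submitters' processing notes name. For the aligner, counter, strand, molecular identifiers and doublets no source used here says what was done. Each library's 2 lanes stand pooled, which makes 4 libraries of the 8 samples in the labels. Cells with 1000 or more counts were kept (1233 to 1545 a library, with 2045844 to 2677026 counts), and 2 cell barcodes were shared by all 4 libraries, none of them among cells kept. Ties in the score were broken by column order.

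Raw counts were summed per library and group of cells (8 sums), and genes averaging 10 CPM in the high or low cells of a population, with at least 20 counts in all, were tested with edgeR 4.0.16 (R 4.3.3): TMM factors, a library block, a high over low effect for each population and their difference, with 2 residual degrees of freedom and an estimate of the spread that edgeR pooled over all genes (biological coefficient of variation 0.0241). The 10 score genes were left out of the table and of library totals. The library block pairs the 2 sums that come from the same library. On simulated sums of 8105 genes the test recovered 59 of 100 genes changed 1.5-fold and 95 of 100 changed 2-fold in RFP+, and 57 and 90 in GFP+, with 4 of 158 and 8 of 155 calls on unchanged genes. The changed genes were drawn from those averaging 50 CPM or more, and every gene was given the same pooled spread. Recovery of weaker genes, and false calls where genes differ in spread, were thus not simulated. DESeq2 1.42.0, other scores, cell minimums, strata and filters were tried as alternatives.

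The members, the 44 gene lists and the tests were chosen with earlier results of these data known. Named genes were the 12 per direction called in both populations with the largest mean log2 at 100 CPM or more, up to 4 per list at 50 CPM or more, genes called for the difference, and a few markers, of which some are not reported here; Nol11, Hspd1, Sparc, Cd24a and Mxd4 were named outside this rule, after their values were seen. Gene positions are GENCODE M21 on GRCm38.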

Additional observations from a re-analysis of the deposited data

Results flagged for a closer look

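The high over low effect of Cdc20 in GFP+ minus that in RFP+ was -1.20 on the log2 scale (edgeR adjusted p = 0.0205 for the difference). It was listed because a test of the difference between the populations passed. In RFP+ it stood at 0.46 ± 0.15 (SE, edgeR adjusted p = 0.0642), higher in the high cells of both libraries, and in GFP+ at -0.74 ± 0.21 (SE) (edgeR adjusted p = 0.0226), lower in both. Its log2 difference kept its sign in every alternative run, from -2.16 to -0.14. The call was kept in 11 of 25 alternatives and lost in 14. It was lost without any 1 library, under DESeq2's Wald test, without the library block, after thinning, within groups of like total counts, at 500 and at 2000 counts a cell, in a split into 3 groups, without Ncl and Npm1, with separate parts of the counts and without the cells with most counts.

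The effect on mt-Rnr1 in GFP+ minus that in RFP+ was 0.67 (edgeR adjusted p = 0.0205 for the difference) and was listed for the same reason. It was lower in the high cells of all 4 libraries, at log2 -1.05 in RFP+ and -0.37 in GFP+. The difference turned to -0.068 with a score without Ncl and Npm1. With cells taken within groups of like mitochondrial share, a share that counts mt-Rnr1 itself, it moved to 0.14. The call was kept in 8 of 25 alternatives and lost in 17, among them each that leaves out 1 library. Why the 2 populations differ for these genes was not tested.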

How the results depend on the processing

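The number of calls moved with the processing. All genes called by edgeR kept their sign under DESeq2's Wald test, but it used the same 8 sums and design, so signs could hardly change. After thinning, 93 of 94 lower GFP+ genes and all other called genes that could be tested kept their sign. Thinning draws on counts of the same cells, so neither alternative is a separate test of direction. DESeq2's Wald test called 15 higher and 11 lower in RFP+, 13 and 7 in GFP+, 9 and 6 in both populations and 0 for the difference. Thinning each cell to 1000 counts gave 22 higher and 24 lower in RFP+, 15 and 15 in GFP+, 9 and 11 in both populations and 0 for the difference. Separate parts of the counts for score and sums gave 30 higher and 16 lower in RFP+, 11 and 10 in GFP+, 8 and 6 in both populations and 0 for the difference. A score without Ncl and Npm1 gave 2 higher and 4 lower in RFP+, 1 and 5 in GFP+, 0 and 3 in both populations and 2 for the difference. A score from Ncl and Npm1 alone, chosen after seeing the data, gave 201 and 113, 132 and 100, 80 and 47, and 3. A minimum of 2000 counts a cell gave 71 higher and 46 lower in RFP+, 37 and 26 in GFP+, 19 and 15 in both populations and 2 for the difference. The top and bottom 10% of cells gave 129 higher and 64 lower in RFP+, 76 and 53 in GFP+, 40 and 28 in both populations and 1 for the difference. Leaving out the 5 percent of cells with most counts gave 112 higher and 61 lower in RFP+, 77 and 53 in GFP+, 36 and 29 in both populations and 0 for the difference. High and low cells taken within 3 groups of like mitochondrially encoded share, chosen after seeing the data, gave 127 higher and 70 lower in RFP+, 98 and 55 in GFP+, 43 and 26 in both populations and 3 for the difference. A filter at 50 CPM gave 174 higher and 180 lower in RFP+, 122 and 143 in GFP+, 66 and 70 in both populations and 4 for the difference.

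The 2 genes called for the difference without Ncl and Npm1, at 2000 counts a cell and in a split into 3 groups were not Cdc20 or mt-Rnr1. The difference between populations called 0 genes without the library block, within 3 groups of like total counts and at a minimum of 500 counts a cell, and 4 within groups of like cycle share and with ribosomal proteins left out of the score's denominator, an alternative chosen after seeing the data. Without the replicate block, which pairs a library's 2 sums, 145 genes were higher and 90 lower in RFP+ and 112 and 81 in GFP+. Leaving out 1 library at a time gave 61 to 188 higher and 39 to 109 lower in RFP+, 33 to 157 and 31 to 91 in GFP+, 22 to 42 and 20 to 26 in both populations, and 0 to 1 for the difference; the lone library left in a population is then assumed to vary like the others. DESeq2 size factors, no filter beyond 20 counts, separate fits, a split into 3 groups, strata by epithelial share, score genes kept in totals and reversed ties stayed within 1.5 times of every count that they gave.

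Of the genes named here, the log2 value changed sign with a score without Ncl and Npm1 for Exosc9 (-0.0107), Grn (0.0449), Malat1 (0.111), Psmd12 (-0.0333) and mt-Nd5 (0.121) in RFP+ and Cdc20 (0.0183), Gspt1 (-0.0697), Hnrnpab (-0.00356), Rdx (-0.0137), Rrp15 (-0.0215) and Tma16 (-0.0225) in GFP+, and for Eef1d (-0.0357) in GFP+ with separate parts of the counts, and for mt-Rnr1 (0.0361) in GFP+ within groups of like mitochondrially encoded share. The difference between populations for mt-Rnr1 turned to -0.0683 with a score without Ncl and Npm1. The cause was not tested. The low number of counts per cell, 1233 to 1545 cells a library and 2 libraries a population limit what could be called. On simulated sums 59 and 57 of 100 genes changed 1.5-fold were recovered. Those genes averaged 50 CPM or more and shared 1 pooled spread, so the values do not hold for weaker genes.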

Other observations

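A few groups outside the nucleolus and the epithelial and mesenchymal lists also moved. Malat1, an abundant RNA kept in the nucleus, fell from 2498 to 2099 and 2752 to 2111 CPM in RFP+ and from 2212 to 1487 and 2437 to 1569 CPM in GFP+, a log2 of -0.30 ± 0.05 and -0.57 ± 0.06 (SE) (edgeR adjusted p = 9.31e-07 and 3.66e-20). H2afv, a replication-independent histone variant, fell, at log2 -0.62 ± 0.13 and -0.66 ± 0.16 (SE) (edgeR adjusted p = 0.000338 and 0.0019), while Hist1h2ae, a replication-linked histone, stood at 0.46 ± 0.17 and 0.57 ± 0.14 (SE), past the threshold in GFP+ (edgeR adjusted p = 0.122 and 0.00267). U90926, a transcript on no list, rose from 148 to 206 and 177 to 288 CPM in RFP+ and from 104 to 114 and 56.8 to 154 CPM in GFP+ (edgeR adjusted p = 0.000633 and 0.0129). Slc38a10, an amino acid transporter, fell, at log2 -0.65 ± 0.21 and -0.68 ± 0.19 (SE) (edgeR adjusted p = 0.0416 and 0.0132). Of 25 glycolysis and hypoxia genes none passed in either population, and of 36 proteasome genes 3 (8.33%) rose in each population and none fell.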
